A study of Homo sapiens with 4 samples.

Results

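Distal GATA2 peaks without a GATA motif were taken from the GATA2 ChIP-seq peak lists of K562 cells. Their reference sequence (hg38) holds no match on either strand to WGATAR, the consensus in which W stands for A or T and R for A or G. Distal means that the midpoint of the peak lies more than 1 kb from every transcription start site (TSS) of a protein-coding gene in GENCODE release 44. Of the 31777 peaks in asynchronous cells, 28533 were distal, and 1737 of these held no WGATAR, which is 6.09% of the distal peaks (95% exact binomial interval 5.81% to 6.37%). Of the 1648 peaks in mitotic cells, 1481 were distal, and 51 held no WGATAR, or 3.44% (2.57% to 4.50%). K562 is an established human line of chronic myeloid leukaemia that expresses endogenous GATA2. The asynchronous cells had no arrest, and the mitotic cells were arrested with nocodazole and sorted by MPM-2 staining, with some asynchronous cells left in the sort. Cells of both conditions were fixed with disuccinimidyl glutarate and then formaldehyde, and sorted cells of several rounds were pooled. Each condition has 1 GATA2 library, so no difference between the conditions has a replicate check. The lists give positions without height or read count, and the depth of the libraries is unknown. The intervals given cover counting error over peaks only.

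GATA2 is a zinc-finger transcription factor of haematopoietic stem and progenitor cells, and its C-terminal finger recognises the WGATAR sequence. The factor also works in complexes with E-box, RUNX and ETS factors, whose own sequences lie in the same enhancers. Zinc fingers of the GATA family tolerate some changes around the GATA core, so a region that lacks the consensus can still hold related sequence. A factor that stays on its sites during mitosis is called a bookmarking factor. Bookmarked here means that the interval overlapped, by 1 base or more, an interval called in the other condition.

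The members are first shown as sequence, because the consensus search alone does not say what they do hold. Sequences are from the plus strand of hg38, 5′ to 3′. The first 6 were present in both conditions without WGATAR in either interval, and the mitotic interval is printed. In all sequences of this group, capitals mark GATA (or TATC, its complement), AGATTA or TGATTA (or their complements), and the strings of other factors listed further on. The sites are named by the nearest protein-coding gene, IKZF2 at chr2:212974884-212975083, KCNMB2 at chr3:177878245-177878535, AFF3 at chr2:99771842-99772093, PIM1 at chr6:37191914-37192083, TMEM63B at chr6:44058593-44058825 and LTBP1 at chr2:32916349-32916423. HBZ at chr16:149408-149643 and ITGB3 at chr17:47288614-47288866 are asynchronous peaks without a mitotic counterpart, shown because HBZ encodes the embryonic zeta globin and ITGB3 a platelet integrin, a choice made after their values were seen.
IKZF2: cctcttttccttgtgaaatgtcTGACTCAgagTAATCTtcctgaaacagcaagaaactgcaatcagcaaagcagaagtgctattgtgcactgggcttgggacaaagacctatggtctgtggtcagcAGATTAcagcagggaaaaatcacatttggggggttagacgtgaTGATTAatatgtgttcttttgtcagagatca
KCNMB2: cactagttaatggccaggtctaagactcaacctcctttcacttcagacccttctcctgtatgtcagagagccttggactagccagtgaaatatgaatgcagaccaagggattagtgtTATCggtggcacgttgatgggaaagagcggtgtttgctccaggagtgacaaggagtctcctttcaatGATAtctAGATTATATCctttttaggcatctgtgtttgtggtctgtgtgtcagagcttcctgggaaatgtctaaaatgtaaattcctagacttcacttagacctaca
AFF3: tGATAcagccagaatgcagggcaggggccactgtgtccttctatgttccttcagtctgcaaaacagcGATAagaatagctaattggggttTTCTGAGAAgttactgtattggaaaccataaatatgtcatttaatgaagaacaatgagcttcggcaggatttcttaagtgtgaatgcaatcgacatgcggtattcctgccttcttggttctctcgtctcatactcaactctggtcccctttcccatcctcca
PIM1: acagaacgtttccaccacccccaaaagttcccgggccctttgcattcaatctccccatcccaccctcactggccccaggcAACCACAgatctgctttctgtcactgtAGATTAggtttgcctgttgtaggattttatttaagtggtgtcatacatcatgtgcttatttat
TMEM63B: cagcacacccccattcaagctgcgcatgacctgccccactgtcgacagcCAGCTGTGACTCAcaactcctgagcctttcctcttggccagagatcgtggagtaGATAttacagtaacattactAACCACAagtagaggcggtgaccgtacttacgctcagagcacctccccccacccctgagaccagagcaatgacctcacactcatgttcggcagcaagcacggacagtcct
LTBP1: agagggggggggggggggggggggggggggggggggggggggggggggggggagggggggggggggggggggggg
HBZ: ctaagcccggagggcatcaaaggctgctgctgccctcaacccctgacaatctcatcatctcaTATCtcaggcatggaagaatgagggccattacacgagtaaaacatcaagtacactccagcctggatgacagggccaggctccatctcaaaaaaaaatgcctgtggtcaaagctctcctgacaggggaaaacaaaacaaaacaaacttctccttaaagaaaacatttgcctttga
ITGB3: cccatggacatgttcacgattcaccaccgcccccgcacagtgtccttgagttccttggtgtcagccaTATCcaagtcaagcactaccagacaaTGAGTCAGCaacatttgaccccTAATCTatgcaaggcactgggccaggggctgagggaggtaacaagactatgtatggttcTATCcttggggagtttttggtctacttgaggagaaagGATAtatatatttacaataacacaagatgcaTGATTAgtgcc

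The mitotic intervals at IKZF2 and PIM1 held no GATA at all but AGATTA or TGATTA on either strand, beside an AP-1 string (IKZF2) or a RUNX string (PIM1). The wider asynchronous intervals of these sites did hold GATA, as GGATAA at IKZF2 and GGATAC at PIM1. The KCNMB2 and AFF3 sequences held CGATAA, which differs from the consensus in the first base. The TMEM63B sequence held AGATAT with RUNX, AP-1 and E-box strings. The LTBP1 site is a run of G in which 96.0% of the bases are G or C, and it held none of the strings. Its central 31 bases occur 5 times in the reference by the mitotic interval and 120 times by the asynchronous one.

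In asynchronous cells, most peaks without WGATAR still held the GATA core in another setting. GATA with any neighbouring base was found in 1309 of the 1737 peaks, or 75.4% (73.3% to 77.4%), and 428 peaks (24.6%) had no GATA. As a comparison, a window as wide as the peak was placed 5 kb upstream and downstream, and the 1997 windows that lay off all peaks and also lacked WGATAR are called flanks. The flanks that remained were narrower than the peaks, with a median of 246 bp against 271 bp, and so had less room for a match. Comparisons with the flanks were not adjusted for width. Of the flanks, 46.5% held GATA (44.3% to 48.7%). Changes of the last base of the consensus, to C or T, were found in 56.5% of the peaks and 29.0% of the flanks. Changes of the first base, to C or G, were found in 32.3% and 16.3%. A change inside the core, AGATTA or TGATTA, was found in 46.3% of the peaks and 17.8% of the flanks, a difference of 28.6 percentage points (Newcombe interval 25.7 to 31.4). At least 1 of these 3 kinds of near-GATA string was present in 1528 peaks, 88.0% (86.3% to 89.5%), against 48.7% of flanks (46.5% to 50.9%), a difference of 39.3 points (36.6 to 41.9).

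The single string with the highest ratio to the flanks among 1565 ranked strings of 6 letters, those found in at least 5% of the peaks, was CGATAA. It was found in 9.67% of the peaks without WGATAR (8.32% to 11.2%), in 1.60% of the flanks and in 4.68% of the distal peaks with WGATAR. The 6.04-fold ratio to the flanks stood above a median ratio of 1.13 over all ranked strings. CTAATC, the complement of GATTAG, followed with 26.0% against 5.46% (4.77-fold). The next of the 10 highest ratios were those of CTTATC (4.45), GCGATA (4.23), GATATC (3.81), AGATTA (3.11), CATATC (2.94), GAGATA (2.77), CGCTGA (2.56) and CTGATA (2.49). Of these 10 strings, CGCTGA alone shares neither GATA nor GATTA with the others. Ranked strings overlap each other and are not independent, and the ratios are descriptions without a test.

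The near-GATA strings lay near the centre of the peaks. Within 50 bp of the midpoint lay 55.9% of the AGATTA or TGATTA matches in the peaks without WGATAR (53.0% to 58.8%), where 33.5% of all their bases lie. In the flanks the corresponding share of matches was 38.8% (34.1% to 43.7%), with 36.0% of the bases. For the changed last base the central shares were 50.1% and 36.4%, and for the changed first base 49.1% and 37.4%. In the bins of 50 bp on either side of the midpoint, the peaks without WGATAR held 3.59 and 3.66 matches of AGATTA or TGATTA per kb, against 1.08 and 0.898 per kb at the outermost bins, centred 275 bp away.

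WGATAR matches just outside the interval were a little more frequent than beside the flanks. A match lay within 100 bp outside 606 of the 1737 peaks, or 34.9% (32.6% to 37.2%), against 30.1% of the flanks (28.1% to 32.2%), a difference of 4.74 percentage points (1.73 to 7.75). Within 250 bp the shares were 60.2% and 57.1%, and the interval of the difference included 0 (3.08, -0.0927 to 6.23). Peaks with neither GATA inside nor WGATAR within 100 bp numbered 282, which is 16.2% of the 1737.

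Strings of other haematopoietic factors were also more frequent than in the flanks. The strings searched on both strands were AGGAAGT for ETS and GAGGAAGT for PU.1 within it, AACCACA for RUNX, TGACTCA or TGAGTCA for AP-1 and the same followed by GC for NFE2/MAF, CAGCTG for the E-box, TTCNNNGAA for STAT, GGAATG for TEAD, TTACNNAA or TTGCNNAA for CEBP, CCACACCC for KLF, GGGCGGG for SP, ATTGGCT for the CCAAT box, TGACGTCA for CRE, GCGCATGC for NRF1, AAGATGGC for YY1, and the CTCF core. AP-1, the family of JUN and FOS, was found in 16.2% of the peaks without WGATAR (14.5% to 18.1%), 3.49 times the flanks' 4.66%. RUNX was found in 15.3% (13.7% to 17.1%), 4.08 times the flanks, and ETS in 14.7% (13.0% to 16.4%), 2.93 times. Among the longer strings, PU.1 reached 7.14% (7.13 times the flanks) and NFE2/MAF, the site of the erythroid factor NFE2 with its small MAF partners, 4.55% (9.08 times). The CTCF core, of the insulator protein, was held by 27 peaks, or 1.55%, against 3 of the 1997 flanks. The E-box string CAGCTG was found in 23.3%, 1.96 times the flanks, and other E-box sequences were not searched. For KLF, CRE, NRF1, YY1 and the CCAAT box the differences from the flanks lay between -0.541 and 0.845 percentage points, with intervals that included 0. RUNX strings were also central, with 53.6% of matches within 50 bp of the midpoint (47.7% to 59.4%) against 35.5% in the flanks (24.9% to 47.3%).

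Against the 26796 distal peaks that do hold WGATAR, fewer strings stood apart. AP-1 was 3.08 percentage points more frequent in the peaks without WGATAR (1.37 to 4.93), NFE2/MAF 1.78 points (0.872 to 2.88), PU.1 1.45 points (0.297 to 2.79), SP 2.70 points (1.71 to 3.89) and CTCF 1.05 points (0.554 to 1.75). The differences for RUNX (1.46, -0.213 to 3.27), ETS (-0.632, -2.28 to 1.16) and the E-box (-0.799, -2.80 to 1.31) included 0. For RUNX the interval left out 0 over 3 kb from a TSS (1.85, 0.0346 to 3.83) and with the TSS of every annotated gene (1.89, 0.136 to 3.81). It also left out 0 with intervals widened by 100 bp, against peaks with WGATAR in the widened interval (2.32, 0.265 to 4.60). For AP-1 the interval included 0 in the peaks without any GATA, against distal peaks that hold GATA (2.82, -0.384 to 6.62). CEBP (-10.9 points), TEAD (-5.29), STAT (-3.56) and the CCAAT box (-1.05) were less frequent. Width moves with these values, since the peaks without WGATAR are narrower. With the peaks that hold WGATAR reweighted to the widths of those without, a step chosen after seeing the data, the differences were 5.74 points for AP-1, 4.17 for RUNX, 2.02 for ETS and 4.36 for the E-box, and those for CEBP, TEAD, STAT and the CCAAT box were -2.81, 0.583, 0.822 and 0.257. The 3 kinds of near-GATA string differed between the peaks without and with WGATAR by 1.61 points (changed last base, -0.804 to 4.00), 0.957 points (changed first base, -1.27 to 3.26) and 1.82 points (changed core, -0.590 to 4.24). With the same reweighting these differences were 10.6, 7.82 and 9.93 points. The string CGATAA alone was 4.99 points (3.66 to 6.49) more frequent in the peaks without WGATAR.

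The peaks without WGATAR were narrow and somewhat rich in GC. Their median width in asynchronous cells was 271 bp (262 to 279, order-statistic interval), with quartiles of 208 and 366 bp, against a median of 387 bp for distal peaks with WGATAR. The share of distal peaks without WGATAR fell from 14.2% under 200 bp to 1.69% at 500 bp or more in asynchronous cells. In mitotic cells it was 9.02% (5.87% to 13.1%) under 200 bp and 0.671% (0.0170% to 3.68%) at 500 bp or more. Of all windows of the members' widths 5 kb away and off the peaks, 59.4% had no WGATAR. The part of width in the absence of a match was not tested. Median GC content was 46.9% in asynchronous cells (46.5% to 47.4%), against 43.6% in peaks with WGATAR, and 84 peaks (4.84%) had over 60% GC, against 1.25%. Central 31 bases that occur more than once in the reference were found in 6.28% and 5.76%, a difference within the counting error (0.513 points, -0.572 to 1.78).

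Their shares of introns, exons and intergenic sequence were close to those of other distal peaks, while start sites and other peaks lay nearer. In asynchronous cells 49.6% lay in introns, 48.1% in intergenic sequence and 2.30% in exons of protein-coding genes, and the intervals of the differences from peaks with WGATAR included 0 for all 3 classes. A TSS of another gene type, mostly long non-coding RNAs by the annotation, lay within 1 kb of 146 peaks, 8.41% (7.14% to 9.81%), against 4.69% of peaks with WGATAR, a difference of 3.71 points (2.47 to 5.13). The median distance to a protein-coding TSS was 15379 bp (14436 to 16848) against 18285.5 bp (17874 to 18688). Within 3 kb of such a TSS lay 13.2%, against 11.3% (difference 1.91 points, 0.346 to 3.62), and over 100 kb away 9.96%, against 14.8% (difference -4.80 points, -6.19 to -3.24). Another asynchronous peak lay within 10 kb of 56.5%, against 52.3% (difference 4.24 points, 1.82 to 6.63).

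Few of the asynchronous peaks without WGATAR were kept in mitosis. Bookmarked were 16 of 1737, or 0.921% (0.527% to 1.49%), where 5.05% of all distal asynchronous peaks and 5.04% of all asynchronous peaks were. Of the distal peaks with WGATAR, 1425 of 26796 were bookmarked, 5.32% (5.05% to 5.59%), a difference of -4.40 percentage points (-4.84 to -3.77). The share rose with the number of WGATAR matches, from 0.921% with none to 1.98% with 1, 3.51% with 2, 5.77% with 3, 10.0% with 4 and 14.1% with 5 or more. Width rose along the same order, from a median of 271 bp to 610 bp. Much of the difference moved with width. At the widths of the peaks without WGATAR, 1.84% of the peaks with WGATAR were bookmarked, which would be 31.9 of 1737, and 1.45% of those with exactly 1 match, which would be 25.2. The observed 0.921% lies below the first value by more than its interval, while the second value lies inside the interval. The counting error of both reweighted values is not covered. The widest of the 10 width bins had no upper limit, so widths within it were not matched. There, 7 of 174 peaks without WGATAR were bookmarked (4.02%), against 13.7% of those with it. The former ran from 465 to 1065 bp, and the latter reached 2590 bp. In narrower bins the difference went either way. The shares were 2.33% against 0.901% at 343 to 390 bp and 1.73% against 2.71% at 391 to 464 bp. Under 300 bp, 2 of 1025 peaks without WGATAR were bookmarked (0.195%), the run of G near LTBP1 among them, against 0.122% of those with it. From 300 to under 500 bp the shares were 1.21% (7 of 578) and 1.85%, and the interval of their difference included 0 (-0.642 points, -1.32 to 0.647). At 500 bp or more, 7 of 134 were bookmarked, 5.22% (2.13% to 10.5%), against 15.6% of peaks with WGATAR and 12.3% of those with 1 match. This last difference was -7.07 points (-10.7 to -1.48). The class of 500 bp or more has no upper limit either, so widths within it were not matched.

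The 16 bookmarked peaks were wide for their kind, with a median of 416 bp against 269 bp for the 1721 that were not bookmarked. Near-GATA strings were present in 15 of the 16, as was at least 1 string of the other factors in the asynchronous interval, the exception for both being the run of G near LTBP1. Over all 1737 members the shares were 88.0% and 77.8%, and wider intervals have more room for a match. AP-1 was held by 5 of the 16, ETS by 4, RUNX by 4, the E-box by 4, and NFE2/MAF and CTCF by none. Over all members these strings were held by 16.2%, 14.7%, 15.3%, 23.3%, 4.55% and 1.55%, in the same order. Of all members with an AP-1 string 1.77% were bookmarked (5 of 282, 0.578% to 4.09%), an interval that includes the 0.921% over all. The nearest protein-coding genes included MFN2, TEX36, FNDC3A, LTBP1, AFF3, IKZF2, KCNMB2, SMCO1, CCNG1, FAF2, GPRIN1, PIM1, TMEM63B and SGK3. IKZF2 encodes the lymphoid zinc-finger factor Helios, MFN2 a GTPase of mitochondrial fusion, CCNG1 cyclin G1 and PIM1 a serine/threonine kinase that promotes survival. The widest was an 854 bp intronic peak 77794 bp downstream of the nearest TEX36 TSS, whose mitotic interval was 346 bp. The SMCO1 peak was 808 bp in asynchronous and 725 bp in mitotic cells, and the PIM1 peak, 19492 bp downstream of its TSS, 372 bp and 170 bp. In 3 of the 16, at MFN2, FAF2 and GPRIN1, the mitotic interval was wider than the asynchronous one (411 against 375 bp at MFN2, 430 against 387 bp at FAF2, and 479 against 420 bp at GPRIN1).

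In mitotic cells, peaks without WGATAR more often lacked an asynchronous counterpart. Among them 37 of 51 were bookmarked, 72.5% (58.3% to 84.1%), where 98.0% of all distal mitotic peaks and 97.5% of all mitotic peaks were. Of the distal mitotic peaks with WGATAR, 1414 of 1430 were bookmarked, 98.9% (98.2% to 99.4%), a difference of -26.3 points (-39.8 to -16.0). The difference was -14.1 points among peaks of at least 200 bp and -13.3 points, with an interval that includes 0 (-23.6 to 0.287), when bookmarking required a reciprocal overlap of 50%. It was -41.2 points for peaks without any GATA, against peaks that hold GATA. When only AGATA followed by A or G had to be absent, it was -7.49 points, against peaks that hold that string. Seen from the other side, 14 of the 30 distal mitotic peaks with no asynchronous counterpart held no WGATAR, 46.7% (28.3% to 65.7%), against 37 of 1451 bookmarked ones, 2.55%. The authors reported low read coverage at peaks found only in mitosis. The mitotic peaks without WGATAR had a median width of 200 bp (175 to 244), against 301.5 bp for those with it. GATA with any neighbouring base was found in 37 of the 51 (72.5%) and a near-GATA string in 42, 82.4% (69.1% to 91.6%), against 47.1% of their 70 flanks. Over 100 kb from a protein-coding TSS lay 31.4% of the 51, against 14.5% of those with WGATAR (difference 16.8 points, 5.62 to 30.6). The median distance was 24515 bp for the 37 bookmarked ones (11223 to 49222), against 21185 bp for peaks with WGATAR. A TSS of another gene type lay within 1 kb of 13.7%, against 5.03% (difference 8.69 points, 1.66 to 20.7). The central 31 bases occurred more than once in the reference for 5 of the 51 (9.80%), against 3.99% of those with WGATAR (difference 5.82 points, 0.158 to 17.0).

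The 51 mitotic peaks fell into 3 kinds by their asynchronous counterpart. In 16 the asynchronous peak also lacked WGATAR, and the nearest match outside the mitotic interval was 127 to 1019 bp away (median 436.5 bp). In 21 the asynchronous peak held 1 to 6 matches, and the mitotic interval, with a median width of 201 bp where the asynchronous peaks had one of 665 bp, left them out. The nearest WGATAR lay inside the asynchronous peak in all 21, at 0 to 216 bp from the mitotic interval (median 33 bp), and at under 100 bp in 17. The converse held for 1404 of the 1425 bookmarked asynchronous peaks with WGATAR (98.5%), whose mitotic interval held a match. The examples, near KIT, the receptor of stem cell factor, and S1PR3, a receptor of sphingosine 1-phosphate, were chosen after their values were seen and are shown to give the distance between interval and motif. The mitotic interval runs from chr4:54542674-54542848 for KIT and chr9:88820239-88820367 for S1PR3, and each sequence was extended to its nearest WGATAR, which is in capitals, giving chr4:54542632-54542848 and chr9:88820232-88820367 on the plus strand.
KIT: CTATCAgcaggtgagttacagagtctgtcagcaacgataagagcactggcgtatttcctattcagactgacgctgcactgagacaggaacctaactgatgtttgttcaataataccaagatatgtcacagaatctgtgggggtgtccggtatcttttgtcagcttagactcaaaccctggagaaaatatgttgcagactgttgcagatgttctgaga
S1PR3: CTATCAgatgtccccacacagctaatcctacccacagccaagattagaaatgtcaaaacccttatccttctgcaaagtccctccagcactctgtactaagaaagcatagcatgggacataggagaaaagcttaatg

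At KIT, 114506 bp from the nearest TSS of that gene, the match at chr4:54542632-54542637 was the only WGATAR of the 594 bp asynchronous peak and ended 36 bp before the 175 bp mitotic interval. At S1PR3 the asynchronous peak of 510 bp held 5 matches and the mitotic interval of 129 bp lay 1 bp from the nearest. Other genes nearest to mitotic intervals of this kind were IER5, APOBEC4, RBBP5, CP, MED12L, MCF2L2, PCDH7, ART3, MARCHF3, HIVEP1, JARID2, HLA-E, BLVRA, RSBN1L, HMBOX1, ECM2, HDHD3, USP9X and PPP1R2C. RBBP5 encodes a core subunit of the COMPASS histone methyltransferases, JARID2 a partner of the Polycomb complex PRC2, BLVRA biliverdin reductase and MED12L a Mediator subunit. The interval near HMBOX1 was the narrowest of the 21, with 118 bp of a 1055 bp asynchronous peak that held 6 matches. Near USP9X the 342 bp mitotic interval missed the 1 match of a 1183 bp asynchronous peak by 54 bp.

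The remaining 14 mitotic peaks had no asynchronous counterpart and were the narrowest, with a median of 158 bp. The authors reported low read coverage at peaks found only in mitosis and left such peaks out of their later analyses. The median distance of the 14 to a protein-coding TSS was 158088.5 bp, and their median distance to an asynchronous peak was 97044 bp, with 3 of the 14 closer than 10 kb. No GATA was found in 6 of them. In 3 of the 14 the central 31 bases occur more than once in the reference, 75 times at F2RL1, 4 times at ZNF43 and 2 times at one of the USP3 peaks. A pair of them, 113 and 84 bp wide, lay at chr14:105741680-105741792 and chr14:105742976-105743059 near the immunoglobulin gene IGHG1, with 61.9% and 67.9% GC. The other nearest genes were MED13L, C16orf82, MTCL1, PAX1, MTRR, SPOCK1, GABRB2 and NPSR1, and for the pair TMEM121. None of these genes is in the lists of haematopoietic genes used here.

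Some peaks without WGATAR lay nearest to genes of blood formation, and 5.47% of all asynchronous peaks were such peaks. Among peaks nearest to the heptad, the set of stem cell regulators that includes GATA2, they were 6 of 69 (8.70%), of which 3 were nearest to LMO2, the bridging protein of the TAL1 complex, and 3 to RUNX1. Among erythroid genes they were 5 of 86 (5.81%), among them 1 each at HBZ and GFI1B and 2 at ZFPM1, which encodes the GATA cofactor FOG1. Megakaryocyte genes had 2 of 25, at ITGB3 and PLEK. Genes of the AP-1 and BACH families had 6 of 64 (9.38%), with 3 at JUN and 1 each at FOS, BACH1 and BACH2. ETS and myeloid genes had 3 of 48 (6.25%), with 2 at CEBPB and 1 at ETS2. Signalling and growth genes had 8 of 106 (7.55%), with 2 each at PIM1 and MYC and 1 each at STAT5B, BCL2L1, KIT and LYN. Of these 30 peaks, 1 was bookmarked, the PIM1 peak shown above, beside 0.921% of all asynchronous peaks of this kind and 5.04% of all asynchronous peaks. These shares rest on few peaks per list and have no test.

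Single members near these genes differed in what they held. At LMO2, a 448 bp peak 65765 bp upstream of the TSS held RUNX, YY1 and STAT strings with 4 GATA cores, and a 180 bp peak 49763 bp upstream held ETS, PU.1, AP-1 and CEBP strings with 2. A WGATAR lay 24 bp and 16 bp outside them. At RUNX1, a 340 bp intronic peak held an AP-1 string and no GATA. The 236 bp HBZ peak, 3118 bp upstream of the TSS, held AGATAT and none of the other factors' strings. The 253 bp ITGB3 peak, 2313 bp upstream, held AP-1 with the NFE2/MAF extension. At STAT5B the central 31 bases of the 192 bp peak occur 512 times in the reference.

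The 10 widest asynchronous peaks without WGATAR were nearest to BHLHE40 (1065 bp), ODF2L (877 bp), TEX36 (854 bp), ZEB2 (815 bp), SMCO1 (808 bp), SLC16A5 (807 bp), RRAGC (800 bp), GSDMC (773 bp), ORAI2 (771 bp) and TEC (767 bp). Those at TEX36 and SMCO1 were bookmarked, beside 5.22% of all peaks without WGATAR of 500 bp or more and 15.6% of those with it. The peaks at SLC16A5 and RRAGC, a GTPase of nutrient sensing, held no GATA. BHLHE40, a transcriptional repressor with a basic helix-loop-helix domain, had its peak 1486 bp upstream of a TSS, with 59.7% GC and 3 GATA cores, each followed by C. At TEC, a tyrosine kinase of haematopoietic cells, the peak held 9 GATA cores, none of them in a WGATAR.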

How the data were processed

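GATA2 was measured by single-end ChIP-seq with a Santa Cruz antibody in asynchronous and mitotic K562 cells, 1 library per condition. The deposited values are genomic positions in bp, in 3 columns (chromosome, start, end), with no score, height or count. According to the submitters' processing notes and methods, the authors aligned reads to hg38 with BWA 0.7.12, kept uniquely mapped reads, extended them, called peaks with MACS2 2.1.0 and Genrich 0.6.1, removed blacklisted regions and used deepTools 2.5.4 for coverage. How the calls of both programs were combined, the thresholds and the use of input are not given in the sources used here. Input libraries and other assays were not used here.

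Peaks were searched for WGATAR on both strands of the hg38 sequence and placed by GENCODE release 44. The 16 strings of other factors and the near-GATA strings were searched as fixed letters. Flanks were windows placed 5 kb away at the width of their peak, off all peaks and without WGATAR. The windows left after this selection were narrower than the peaks. Shares have 95% exact binomial intervals, differences Newcombe intervals and medians order-statistic intervals. They cover counting error over peaks only, and peaks are not replicates of a condition. Width reweighting used 10 bins, of which the widest had no upper limit. At matched widths, the interval of a difference is not Newcombe's but the exact interval of the members' share minus the reweighted share, taken as fixed. Genes were named by a rule: those nearest to a mitotic member, to the 10 widest asynchronous members, and genes of 6 lists nearest to a member. Members and lists were chosen with earlier results of these data known. Some named genes and sequences are not reported here. The functions were tested on simulated data. Scripts were written in Python 3.11.15 with scipy 1.17.1 for intervals, pysam 0.24.0 for sequence, pandas 2.3.3 and numpy 2.4.6 for tables, and matplotlib 3.10.9 for figures.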

Additional observations from a re-analysis of the deposited data

How the results depend on the processing

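With 1 library per condition, leaving out a replicate was not possible and depth is unknown, so absence from a list is not absence of GATA2. No paired analysis was possible because each condition has 1 library. Over 18 results and 14 alternatives, 163 values were computed, of which 115 moved by less than the interval (or, for numbers of peaks, 1.5-fold), 48 moved further and 0 changed the sign of a difference whose interval left out 0. Of the alternatives, 3 were added after seeing the data.

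Requiring that GATA be absent with any neighbours left 428 asynchronous peaks (1.50002% of distal peaks) with a median width of 232 bp and GC content of 48.7%, and 14 mitotic peaks (0.945%). In each alternative that changed the string or the interval searched, the peaks and flanks set beside the members were redefined by the same search. The bookmarking differences from distal peaks that hold GATA were then -4.89 points in asynchronous and -41.2 points in mitotic cells. ETS differed from distal peaks that hold GATA by -3.17 points and CTCF by 2.03 points. From the flanks without GATA, CTCF differed by 2.57 points and AGATTA or TGATTA by 42.7 points. Requiring only that AGATA followed by A or G be absent gave 5415 asynchronous (18.98%) and 200 mitotic peaks (13.5%), a median width of 309 bp, GC content of 45.5%, 6.45% near the TSS of another gene type, AP-1 differences of 8.83 points from the flanks and 1.06 from the other peaks, a difference of 17.3 points for AGATTA or TGATTA, and a mitotic bookmarking difference of -7.49 points. With 100 bp added at each end, 1150 asynchronous (4.03%; median width 282 bp, GC content 47.9%) and 30 mitotic peaks (2.03%) remained without a match, and the AP-1 difference from the other peaks was 4.94 points. With the TSS of every annotated gene, the share near one of another type is 0 by construction.

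Among peaks of at least 200 bp, the share without WGATAR was 5.36% in asynchronous cells (median width 302 bp) and 2.22% in mitotic cells (27 peaks), with a mitotic bookmarking difference of -14.1 points. With a reciprocal overlap of 50%, the bookmarking differences were -1.51 points in asynchronous and -13.3 points in mitotic cells, the latter with an interval (-23.6 to 0.287) that includes 0. With widths matched, the asynchronous difference was -0.914 points (-1.31 to -0.344), and against peaks with 1 match -0.532 points (-0.926 to 0.0379), an interval that includes 0. Both intervals leave out the counting error of the reweighted share. The widest bin had no upper limit, so widths within it were not matched. In the central 200 bp alone, the differences were 7.61 (flanks) and 2.58 points (peaks with WGATAR) for ETS, 3.98 points for RUNX against peaks with WGATAR, and 9.30 and 4.99 points for AP-1. With widths matched, the differences from peaks with WGATAR were 2.02 points for ETS, which is -0.632 with an interval that includes 0 otherwise, 4.17 for RUNX and 5.74 for AP-1.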

Other observations

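The share of distal asynchronous peaks without WGATAR varied by chromosome, from 3.801% on chromosome X (36 of 947, 2.68% to 5.22%) and 4.19% on chromosome 13 (29 of 692) to 8.83% on chromosome 16 (68 of 770, 6.92% to 11.1%), beside 6.09% over all. Chromosome Y held 3 distal peaks, of which 2 had no WGATAR, and whether their reads came from that chromosome was not tested. Without chromosome Y the share over all was 6.08% (5.81% to 6.36%). The 1737 peaks were spread over 1471 nearest protein-coding genes, of which 1262 had 1 such peak. The genes with the most were BCOR, a corepressor, with 7 of 46 asynchronous peaks, LPIN1, a phosphatidate phosphatase, with 6 of 32, ENC1 with 5 of 35 and TNP1 with 5 of 45. At CCNG1 all 3 asynchronous peaks had no WGATAR, and 1 of them was bookmarked. These genes were picked after their values were seen, and genes with more peaks had more chances to hold such a peak.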
